A study of Mus musculus with 6 samples.

Results

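Tnfaip3 encodes A20, an enzyme that edits ubiquitin chains and so shuts NF-kB signalling off, and 9 further genes of NF-kB feedback were described with it in cells of the mouse pancreatic lymph node. They were Nfkbia, Nfkbid, Nfkbie, Nfkbiz, Zc3h12a, Tnip1, Cyld, Nfkb1 and Nfkb2, and each was taken as the feature with that symbol. These are 10 of the 31053 features counted. The set was chosen by genotype values of these mice, namely lower Tnfaip3 and Zc3h12a counts in T cells of Cre-positive than of Cre-negative mice. Genotype differences of the 10 genes within T cells and their subsets are therefore given as a description, with no p and no call. Differences between cell classes, and genotype in B and myeloid cells, were tested.

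NF-kB dimers wait in the cytoplasm bound to inhibitor proteins of the IkB family. Antigen receptors, TNF receptors and Toll-like receptors activate a kinase complex through ubiquitin chains, the IkB protein is degraded, and the dimer enters the nucleus. Many of the genes it then switches on encode its own inhibitors, among them IkB-alpha (Nfkbia) and A20 (Tnfaip3), so the pathway limits itself. In lymphocytes this loop is known to restrain the response to antigen, and loss of A20 causes inflammatory disease in mice and humans.

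The libraries came from 3 Cre-positive mice, which carried a floxed gene and the CD4-Cre transgene, and 3 Cre-negative mice, which carried the same floxed gene without it. Each library is a separate mouse. CD4-Cre drives recombination in developing thymocytes and so in both CD4 and CD8 T cells. The labels give no strain, sex or age. The libraries held 47149014 to 61321105 UMIs (unique molecular identifiers, each 1 captured RNA molecule), and 6775 to 9486 cells per mouse passed the filters, 51515 in all. Pairs of libraries shared 16 to 39 cell barcodes.

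Levels are given as CPM, the UMIs of a gene scaled to 1000000 UMIs of the class in that mouse. Cells were put into classes by marker UMIs, none of them from the 10 genes. The classes held 28303 T cells (3811 to 5309 per mouse), 5314 B cells (566 to 1419) and 1676 myeloid cells (206 to 366). Within T cells, 10718 conventional CD4, 1350 regulatory and 7568 CD8 cells were set apart. A further 16222 cells (31.5% of those kept) were in no class, among them cells with T or B cell markers and over 1 myeloid UMI, such as of Cst3. Markers that the gates did not use were as the names ask: 6 T cell genes summed to 1797 to 1882 CPM in T cells of Cre-positive mice and 1839 to 1911 in those of Cre-negative mice, with 33.0 to 57.4 in myeloid cells over both. B cell genes averaged 1881 CPM in B, 6.63 in T and 19.1 in myeloid cells, and myeloid genes 3777 in myeloid, 508 in B and 134 in T cells (means of 6 mice). The myeloid class was shallow, with medians of 2009 to 3604 UMIs per cell, and mixed: plasmacytoid dendritic cell genes summed there to 505 to 1095 CPM in Cre-positive mice and 641 to 848 in Cre-negative mice. Neutrophil genes reached 83.8 CPM in the myeloid cells of Cre-negative 2 and at most 12.2 in the other 5 mice.

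The 10 genes lie on 10 different chromosomes, and what their promoters share is shown first because the classical members are textbook targets of NF-kB. RefSeq windows of build GRCm38.p6, from 250 bases before to 50 after a start site, were at hand for 8 of the 10 genes, with Nfkbiz and Nfkb1 missing. The kappaB consensus of 10 bases, the classical NF-kB recognition pattern, was searched on both strands, and overlapping matches were merged. It lay in at least 1 window of 7 of the 8 genes, all but Zc3h12a, and in 9 of their 13 windows. Of all 32851 windows in the table, 8.46% held it, as did at least 1 window of 9.55% of the 27025 genes. A match is only a run of letters, and no binding was measured here. For 5 genes, 1 window that holds a match is printed 5′ to 3′ on the gene's own strand, with matches in capitals: 3 of genes that were higher in T than in B cells (Tnfaip3, Nfkbia and Tnip1) and 2 of genes that were lower (Nfkb2 and Nfkbid).
Tnfaip3, chr10:19015361-19015660, minus strand: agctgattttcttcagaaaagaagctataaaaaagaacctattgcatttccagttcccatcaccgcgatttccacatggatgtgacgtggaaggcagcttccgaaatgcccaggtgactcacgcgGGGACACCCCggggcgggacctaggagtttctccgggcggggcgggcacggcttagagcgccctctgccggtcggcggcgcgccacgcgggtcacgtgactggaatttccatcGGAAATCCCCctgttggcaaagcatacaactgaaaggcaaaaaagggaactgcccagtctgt
Nfkbia, chr12:55492598-55492897, minus strand: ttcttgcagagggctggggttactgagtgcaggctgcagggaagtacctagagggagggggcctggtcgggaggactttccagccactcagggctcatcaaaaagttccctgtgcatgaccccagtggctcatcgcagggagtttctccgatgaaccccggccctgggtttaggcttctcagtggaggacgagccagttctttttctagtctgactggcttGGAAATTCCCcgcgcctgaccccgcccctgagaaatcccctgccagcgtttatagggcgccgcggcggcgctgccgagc
Tnip1, chr11:54962891-54963190, minus strand: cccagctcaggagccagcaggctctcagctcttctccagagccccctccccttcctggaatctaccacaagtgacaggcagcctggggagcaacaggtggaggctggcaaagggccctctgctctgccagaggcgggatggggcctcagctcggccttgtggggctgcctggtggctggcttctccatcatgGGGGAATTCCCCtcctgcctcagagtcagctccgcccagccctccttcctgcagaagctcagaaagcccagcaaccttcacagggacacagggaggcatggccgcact
Nfkb2, chr19:46304487-46304786, plus strand: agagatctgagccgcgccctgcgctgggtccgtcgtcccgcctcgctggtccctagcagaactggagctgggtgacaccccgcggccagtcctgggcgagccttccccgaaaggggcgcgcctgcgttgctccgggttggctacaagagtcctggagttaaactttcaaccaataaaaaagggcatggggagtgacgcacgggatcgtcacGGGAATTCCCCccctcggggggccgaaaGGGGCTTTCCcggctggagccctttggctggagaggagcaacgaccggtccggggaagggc
Nfkbid, chr7:30422156-30422455, plus strand: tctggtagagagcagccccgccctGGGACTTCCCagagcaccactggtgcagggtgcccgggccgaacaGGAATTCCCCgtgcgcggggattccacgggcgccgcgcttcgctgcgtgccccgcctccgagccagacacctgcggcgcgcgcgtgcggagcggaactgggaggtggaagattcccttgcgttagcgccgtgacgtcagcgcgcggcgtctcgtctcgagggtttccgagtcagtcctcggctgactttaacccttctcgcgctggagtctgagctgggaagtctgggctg

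The second window of Tnfaip3 in the table, 2 further windows of Nfkbid and that of Zc3h12a held no match, and all 3 of Nfkb2 did. In the printed Tnfaip3 window the matches GGGACACCCC and GGAAATCCCC end 115 and 2 bases before the RefSeq start site of that window. Nfkbia has GGAAATTCCC 19 bases before its own. Tnip1 has a longer palindromic stretch, GGGGAATTCCCC, 46 bases before its start, and Nfkb2 has GGGAATTCCCC and GGGGCTTTCC at 28 and 1. Both genes that were higher in T cells and genes that were lower thus hold the pattern. The Tnfaip3 gene itself spans chr10:19000910-19015657 on the minus strand and is protein coding. This span reaches further upstream than the start site of the printed window, so both matches lie within the gene. The printed windows of Nfkb2 and Nfkbid also lie within their genes, which begin at chr19:46304320 and chr7:30421732.

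Levels are compared only within a gene. Tnfaip3 was a T cell transcript in this node. Over the 6 mice its lowest, median and highest levels were 306, 346 and 512 CPM in T cells, 100.4, 126 and 151 in myeloid cells and 75.6, 102 and 137 in B cells. Every T cell value lay above every myeloid and B cell value, while the myeloid and B cell values overlapped. Sums per mouse were tested with edgeR's quasi-likelihood test with the mouse as a block and Benjamini-Hochberg adjustment over 11183 genes at 0.05. Tnfaip3 was higher in T than in B cells (log2 fold change 1.94, SE 0.129, adjusted p = 2.01e-08), lower in myeloid than in T cells (log2 fold change -1.42, SE 0.140, adjusted p = 9.07e-07) and higher in myeloid than in B cells (log2 fold change 0.52, SE 0.150, adjusted p = 0.00787). The last of these missed the threshold when cells with any UMI of another gate were left out (adjusted p = 0.0525). As a measure of T cell RNA in the B cell class, 6 T cell genes outside the gates were read there. Of these, Cd28, Lat and Cd247 stood in B cells at 0.954% to 1.75% of their T cell level, Lck at 7.98% and Cd2, which B cells also express, at 36.3%.

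Tnip1 and Cyld work beside A20. Tnip1 encodes ABIN1, the ubiquitin-binding partner of A20, and its lowest, median and highest levels were 55.4, 59.4 and 63.3 CPM in T cells, 43.3, 54.7 and 57.3 in myeloid cells and 29.4, 33.7 and 36.7 in B cells. It was higher in T than in B cells (log2 fold change 0.88, SE 0.0660, adjusted p = 1.55e-14) and in myeloid than in B cells (log2 fold change 0.82, SE 0.0965, adjusted p = 1.99e-09). Cyld, a deubiquitinase that strips the chains which activate the kinase complex, stood at 84.5 to 107 CPM in T cells, 65.7 to 90.6 in myeloid cells and 79.8 to 107 in B cells, with the classes overlapping. It passed none of the class contrasts, with log2 fold changes of 0.12 for T over B cells (95% interval -0.00170 to 0.25), -0.12 for myeloid over T cells (-0.28 to 0.04) and 0.00 for myeloid over B cells (-0.16 to 0.17). The difference between T and B cells passed in 5 of 15 alternatives, among them without Cre-positive 3 (0.18) and without Cre-negative 1 (0.19). That between myeloid and T cells passed in 4 of 15, at -0.23 without TMM, -0.24 without the low-count filter, -0.24 with Cst3 left out of the limit and -0.22 without Cre-positive 2.

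Among the T, B and myeloid classes, the classical inhibitors were strongest in myeloid cells. Nfkbia, which encodes IkB-alpha, had lowest, median and highest levels of 524, 679 and 1105 CPM in myeloid cells, 450.2, 496 and 518 in T cells and 244, 273 and 296 in B cells. The ranges of the 3 classes did not overlap, and all 3 contrasts passed, with log2 fold changes of 0.64 for myeloid over T cells (SE 0.145, adjusted p = 0.00188), 1.54 for myeloid over B cells (SE 0.150, adjusted p = 2.1e-06) and 0.91 for T over B cells (SE 0.143, adjusted p = 1.63e-04). Nfkbie, which encodes IkB-epsilon, a slower inhibitor of the same kind, stood at 47.0, 62.6 and 72.8 CPM in myeloid cells, 29.5, 33.7 and 43.8 in B cells and only 9.31, 9.80 and 10.6 in T cells. T cells were thus lowest for Nfkbie (T over B cells: log2 fold change -1.75, SE 0.0899, adjusted p = 2.59e-19; myeloid over T cells: log2 fold change 2.73, SE 0.112, adjusted p = 1.66e-22), whereas B cells were lowest for Nfkbia. Myeloid cells also lay above B cells for Nfkbie (log2 fold change 0.98, SE 0.110, adjusted p = 6.32e-10). Regulatory T cells, a part of the T cell class, had Nfkbia at 1335 to 1661 CPM, above every myeloid value. Their Nfkbie, at 16.9 to 34.9 CPM, lay below every myeloid value but overlapped the B cell values.

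The nuclear inhibitors divided between the T and B cell classes. Nfkbid, which encodes the nuclear protein IkB-NS, was highest in B cells among the 3 classes, at 41.5, 56.2 and 68.6 CPM in B cells, 18.2, 21.1 and 22.2 in T cells and 11.8, 20.3 and 28.7 in myeloid cells. In the regulatory subset of T cells it stood at 21.2 to 60.5 CPM, which overlapped the B cell values. Over the whole T cell class Nfkbid was lower than in B cells (log2 fold change -1.39, SE 0.0926, adjusted p = 1.38e-12). It was also lower in myeloid than in B cells (log2 fold change -1.35, SE 0.165, adjusted p = 9.26e-08), and B cells overlapped with neither class. Nfkbiz, which encodes IkB-zeta, a cofactor for a subset of NF-kB targets, went the other way at 52.3, 56.7 and 72.4 in T cells and 29.4, 35.4 and 41.9 in B cells (log2 fold change 0.78, SE 0.129, adjusted p = 1.14e-04). Its myeloid values spread widely, from 22.1 to 71.0 CPM, and the higher level in myeloid than in B cells (log2 fold change 0.68, SE 0.190, adjusted p = 0.00597) missed the threshold without cells holding any UMI of another gate (adjusted p = 0.0847).

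Over the whole T cell class, both precursor genes were lower than in B cells. Nfkb2, whose product is processed in the non-canonical pathway downstream of receptors such as CD40 and BAFF receptor, had 67.0, 74.9 and 102 CPM in myeloid cells, 49.4, 56.8 and 58.0 in B cells and 11.3, 13.1 and 15.0 in T cells. No value of the whole T cell class came near the others (T over B cells: log2 fold change -2.02, SE 0.0802, adjusted p = 8.85e-23; myeloid over T cells: log2 fold change 2.71, SE 0.102, adjusted p = 1.42e-23). Myeloid cells lay above B cells as well (log2 fold change 0.69, SE 0.0982, adjusted p = 1.07e-07). Nfkb1, the precursor of the classical dimers, stood at 148, 171 and 203 in B cells, 104, 113 and 129.8 in T cells and 73.2, 91.5 and 136 in myeloid cells. It was lower in T than in B cells (log2 fold change -0.57, SE 0.0656, adjusted p = 1.47e-09) and in myeloid than in B cells (log2 fold change -0.70, SE 0.0819, adjusted p = 1.96e-09). In the regulatory subset of T cells, however, Nfkb1 stood at 195 to 267 CPM, which overlapped the B cell values from above. Nfkb2 stood there at 25.6 to 40.1, below every B cell value. Zc3h12a, which encodes the RNase Regnase-1 that degrades mRNAs of inflammatory genes, had 40.6, 46.1 and 50.1 CPM in B cells, 30.8, 36.1 and 43.7 in T cells and 23.5, 26.7 and 47.1 in myeloid cells. Its lower level in T than in B cells (log2 fold change -0.26, SE 0.0749, adjusted p = 0.00303) missed the threshold at 5% mitochondrial UMIs (adjusted p = 0.0646) and with the strict gates (0.177). The lower level in myeloid than in B cells (log2 fold change -0.42, SE 0.124, adjusted p = 0.00323) missed it with cells of at least 2000 UMIs (0.0666). In the regulatory subset Zc3h12a stood at 53.5 to 90.5 CPM, above every B cell value.

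**Figure D1:**
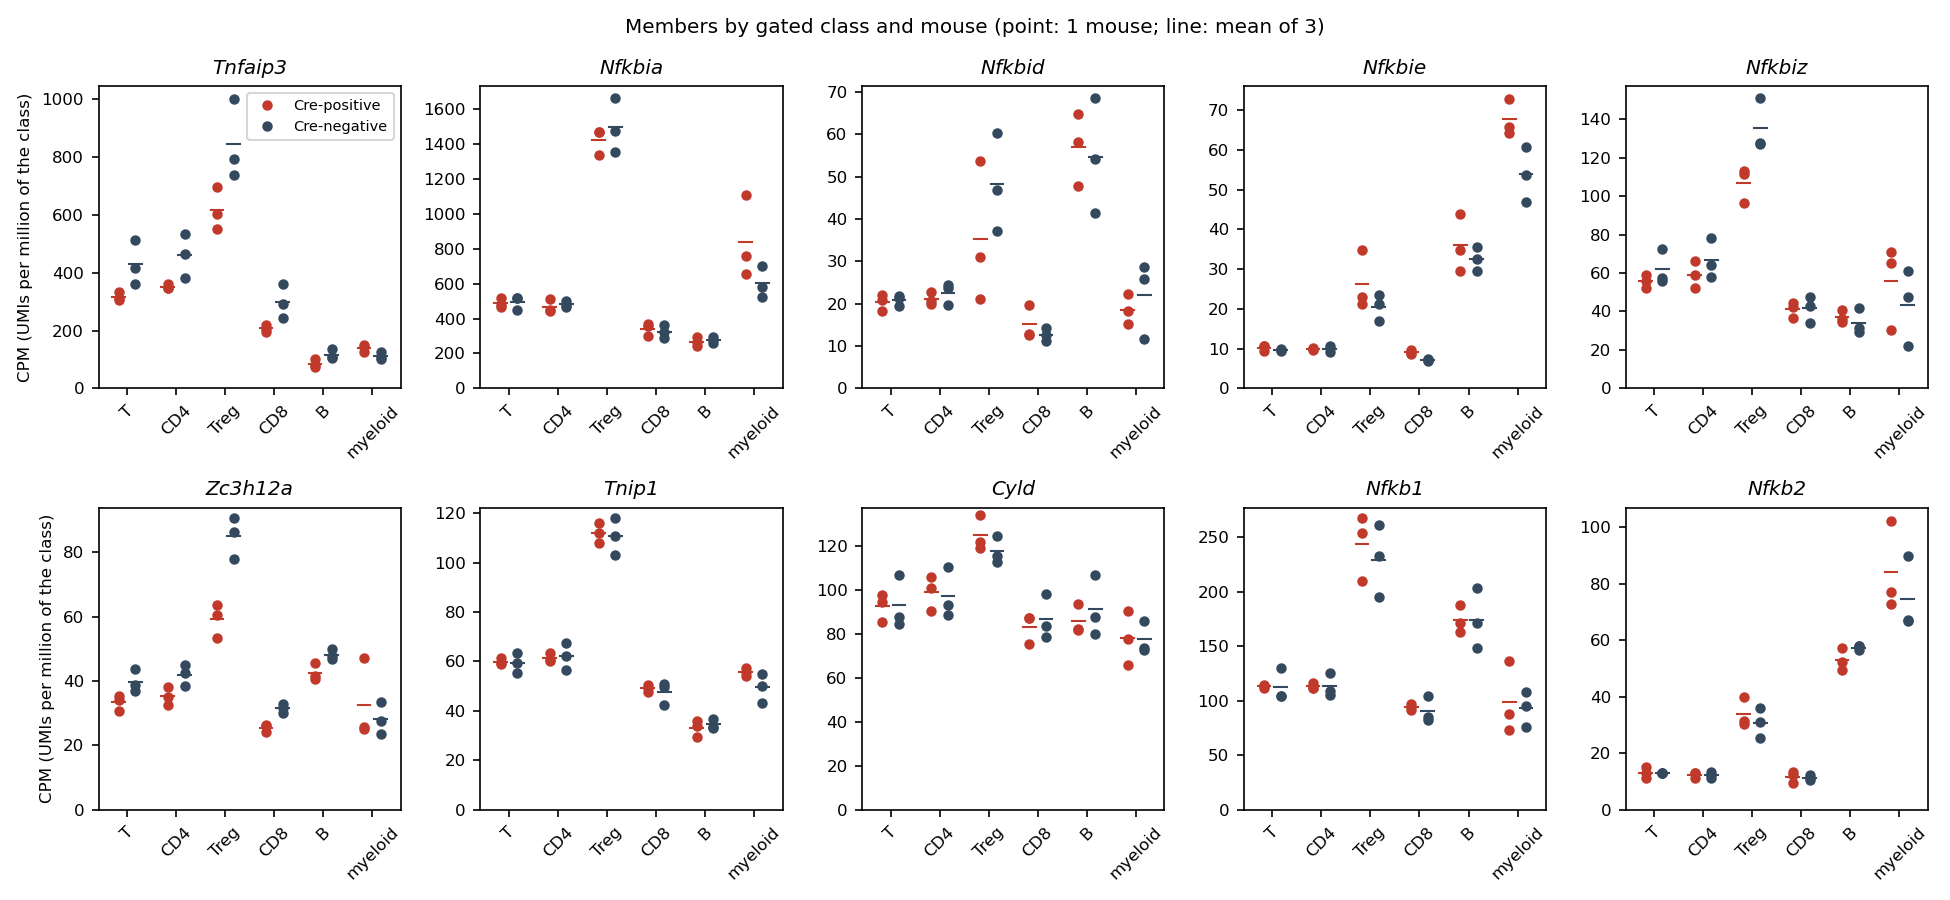
CPM in a class (y axis) for each of the 10 genes in 6 gated classes (x axis), with a point per mouse, Cre-positive left of Cre-negative, and a line at the mean of 3 mice. Tnfaip3 stood at 306 to 512 in T cells and 75.6 to 137 in B cells, while Nfkb2 stood at 11.3 to 15.0 in T cells and 49.4 to 58.0 in B cells.

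In count, 4 of the 10 genes were higher and 5 lower in T than in B cells, when 63.8% of all genes tested passed, 33.5% higher and 30.3% lower. Between myeloid and T cells, 3 were higher (Nfkbia, Nfkbie and Nfkb2) and 1 lower (Tnfaip3), when 75.0% of all genes passed, 38.1% higher and 36.8% lower. For the 6 that did not pass between myeloid and T cells, log2 fold changes ran from -0.16 for Zc3h12a to 0.04 for Nfkbid, and 8 of the 10 passed without the low-count filter or with Cst3 left out of the limit on myeloid UMIs. Between myeloid and B cells, 6 were higher and 3 lower, when 70.1% of all genes passed, 36.8% higher and 33.3% lower. Since most genes differ between such classes, the counts say little and the values carry the description. The median log2 fold change of the 10 genes was -0.07 for T over B cells, beside 0.03 over all genes, and 0.60 for myeloid over B cells, beside 0.00.

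**Figure D2:**
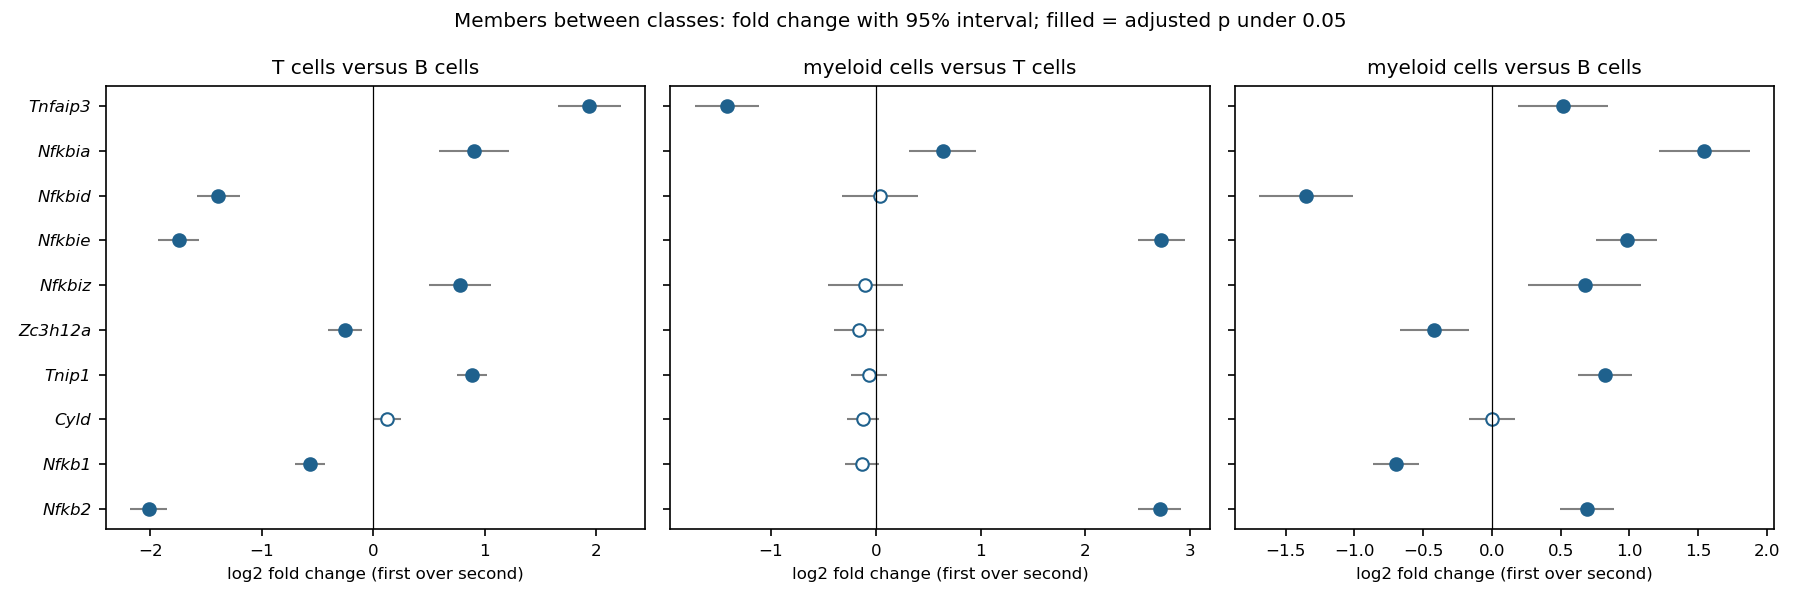
Log2 fold changes of the 10 genes (x axis, with 95% intervals; first-named class over the second) in T versus B, myeloid versus T and myeloid versus B cells, filled where the adjusted p passed 0.05. Tnfaip3 lies at 1.94 and Nfkb2 at -2.02 in the first panel.

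Within T cells all 10 genes had their highest median levels in regulatory T cells, the Foxp3 class that restrains immune responses. Tnfaip3 had 551, 716 and 999 CPM in regulatory T cells (lowest, median and highest of 6 mice), 346, 372 and 534 in conventional CD4 cells and 194, 233 and 362 in CD8 cells. Set side by side within each mouse, the regulatory level was 1.79 ± 0.136 times that of conventional CD4 cells (mean ± SD of 6 mice). No mouse lay outside 1.59 to 1.93. Nfkbia showed the widest gap, with 1335, 1468 and 1661 CPM in regulatory T cells against 443, 470.1 and 510.3 in conventional CD4 cells, a ratio of 3.08 ± 0.243. The ratio of regulatory to conventional CD4 cells was 2.61 ± 0.293 for Nfkb2, 2.37 ± 0.604 for Nfkbie and 2.09 ± 0.249 for Nfkb1, and it was lowest for Cyld at 1.24 ± 0.106. For Nfkbiz it was 1.93 ± 0.163, for Zc3h12a 1.85 ± 0.202 and for Tnip1 1.81 ± 0.181.

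For 9 of the 10 genes the lowest regulatory T cell value over 6 mice lay above the highest conventional CD4 value, an order that 16.8% of 7648 genes showed. Against CD8 cells this held for 10 of 10, when it held for 25.1% of 7594 genes. The exception was Nfkbid, at 21.2 to 60.5 CPM in regulatory and 19.8 to 24.4 in conventional CD4 cells and higher in 5 of 6 mice. It rested on 266 UMIs in all in the regulatory class. Conventional CD4 cells lay above CD8 cells without overlap for 5 of the 10 genes and for 13.2% of 10059 genes, with ratios within mice of 1.44 ± 0.153 for Nfkbia and 1.54 ± 0.241 for Nfkbiz. Tnfaip3 was 1.62 ± 0.106 times as high in conventional CD4 as in CD8 cells and higher in 6 of 6 mice, though the ranges over mice overlapped. These subsets were parts of the T cell class of the same mice, and their ratios were not tested. Immediate-early genes that tissue dissociation can induce summed to 7815 to 9080.3 CPM in regulatory T cells of Cre-positive mice and 8840.0 to 9892 in those of Cre-negative mice, above the 5570 to 6240 of conventional CD4 cells and the 3253 to 4597 of CD8 cells. Their part in the subset differences was not tested.

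A list of 40 further genes of NF-kB signalling held receptors, adaptors, kinases, subunits and other inhibitors, and its counts are given beside the shares of all genes tested. In T against B cells, 9 of 39 tested were higher (33.5% of all genes) and 18 lower (30.3%). Those higher in T cells included Ikbke, an IkB kinase relative (log2 fold change 3.94), the TNF receptor gene Tnfrsf1a (5.19) and Ripk1 (0.77), which relays TNF signals. Those lower included the nuclear IkB gene Bcl3 (-1.76), the ubiquitin ligase gene Birc3 (-1.85), the deubiquitinase gene Otulin (-1.20) and Malt1 (-0.96), which relays antigen receptor signals. In myeloid against T cells 19 were higher (38.1% of all genes) and 3 lower (36.8%). Tnfrsf1b, the second TNF receptor (2.55), Bcl3 (1.87) and the inhibitor genes Nfkbib (1.39) and Tnip2 (2.27) were among the higher, and Ikbke (-3.73), Rc3h1 (-0.72) and Bcl10 (-0.24) were the lower. In myeloid against B cells 17 were higher (36.8% of all genes) and 10 lower (33.3%).

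A second list held 20 known NF-kB target genes. In T against B cells 8 of 20 were higher and 8 lower, when 33.5% and 30.3% of all genes were. The TNF receptor family genes Tnfrsf9 (4.20) and Tnfrsf4 (3.93), the IL-2 receptor gene Il2ra (3.34) and Tnf (2.49) stood on the T cell side, and Cd40 (-7.38), Cd83 (-5.52) and Plek (-5.51) on the B cell side. In myeloid cells 16 were higher and 3 lower than in T cells, beside 38.1% and 36.8% of all genes. Against B cells 18 were higher and 2 lower in myeloid cells, beside 36.8% and 33.3%. Bcl2a1d and Bcl2a1b, both higher in myeloid cells, are similar copies of one gene family whose reads the counting may split, so their values are uncertain. Of 16 dissociation genes, 7 were higher and 4 lower in T than in B cells, 11 higher and 3 lower in myeloid than in T cells, and 12 higher and 2 lower in myeloid than in B cells, beside the same shares of all genes. Their part in the class differences of the 10 genes was not tested.

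Cell by cell, a Tnfaip3 UMI was found in a larger share of T cells than of B or myeloid cells. To compare classes of different depth, each cell was thinned to 2000 UMIs, which left out 532 T, 143 B and 713 myeloid cells. It was then seen in 47.1% ± 6.45 of T cells (mean ± SD of 6 mice), 16.1% ± 3.17 of B cells and 13.6% ± 4.39 of myeloid cells, and without thinning in 71.7%, 30.2% and 18.6%. Nfkbia was seen in 45.8% ± 2.40, 36.6% ± 2.50 and 46.2% ± 1.86 of thinned T, B and myeloid cells, so its share was close in T and myeloid cells although its level was higher in myeloid cells. For Nfkbie and Nfkb2 the thinned share was 1.83% ± 0.262 and 2.31% ± 0.278 of T cells.

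Among T cells with the same number of UMIs, those with more Tnfaip3 UMIs held more of the other feedback RNAs. T cells were split into 14834 with 0, 7742 with 1 and 5195 with 2 or more Tnfaip3 UMIs. Nfkbia stood at 411 ± 42.8, 528 ± 50.1 and 803 ± 39.5 CPM in these (mean ± SD of 6 mice), Zc3h12a at 30.6 ± 5.95, 37.1 ± 3.44 and 55.3 ± 5.34, and Nfkb1 at 102 ± 6.63, 112 ± 11.6 and 149 ± 14.3. Cells with 2 or more lay above cells with 0 in 6 of 6 mice for all of the other 9 genes except Nfkbid, with median ratios from 1.24 for Cyld to 1.92 for Nfkbia (1.82 to 2.20). Nfkbid was higher in 5 of 6 mice. Of 12124 genes, 14.1% were higher in all 6 mice. This share, like those given below for conventional CD4 and B cells, covers genes of any level past the low-count filter. It was not matched to the 9 genes by level, and sparse genes can rarely be higher in all mice. Of a pair of common standards, the cytoskeletal gene Actb had a median ratio of 0.977 and was higher in 1 of 6 mice, and B2m, a part of MHC class I, had 1.07 and was higher in 6 of 6.

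Genes outside the feedback set were higher in these cells too. Of the 16 dissociation genes, 11 were higher in 6 of 6 mice, with median ratios from 1.18 for Ier2 to 2.48 for Fosb. Jun was higher in 5 mice, Atf3 in 4, Hspa1b in 2, and Ier3 (median ratio 0.597) and Hspa1a in 1. Regulatory T cells, where the feedback genes and the dissociation sum were highest, were part of the T cells split here. Within conventional CD4 cells alone (5347, 3084 and 2164 cells) the median ratio was 1.68 for Nfkbia (1.59 to 1.98 over mice), 1.59 for Nfkbie, 1.35 for Nfkb1 and 1.33 for Cyld, each higher in 6 of 6 mice. It was 1.78 for Zc3h12a, 1.42 for Nfkbiz and 1.12 for Tnip1, higher in 5 of 6. Nfkbid (0.992) and Nfkb2 (0.721) were higher in 3 and 2 of 6 mice. In these cells 4 of the 9 feedback genes, 8 of 16 dissociation genes and 5.53% of all genes were higher in 6 of 6 mice. In B cells only 165 cells held 2 or more Tnfaip3 UMIs, and Nfkbia alone of the other 9 genes was higher there in 6 of 6 mice, with a ratio of 1.82 (1.27 to 2.75), when 1.20% of all genes and 7 of 16 dissociation genes were.

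**Figure D3:**
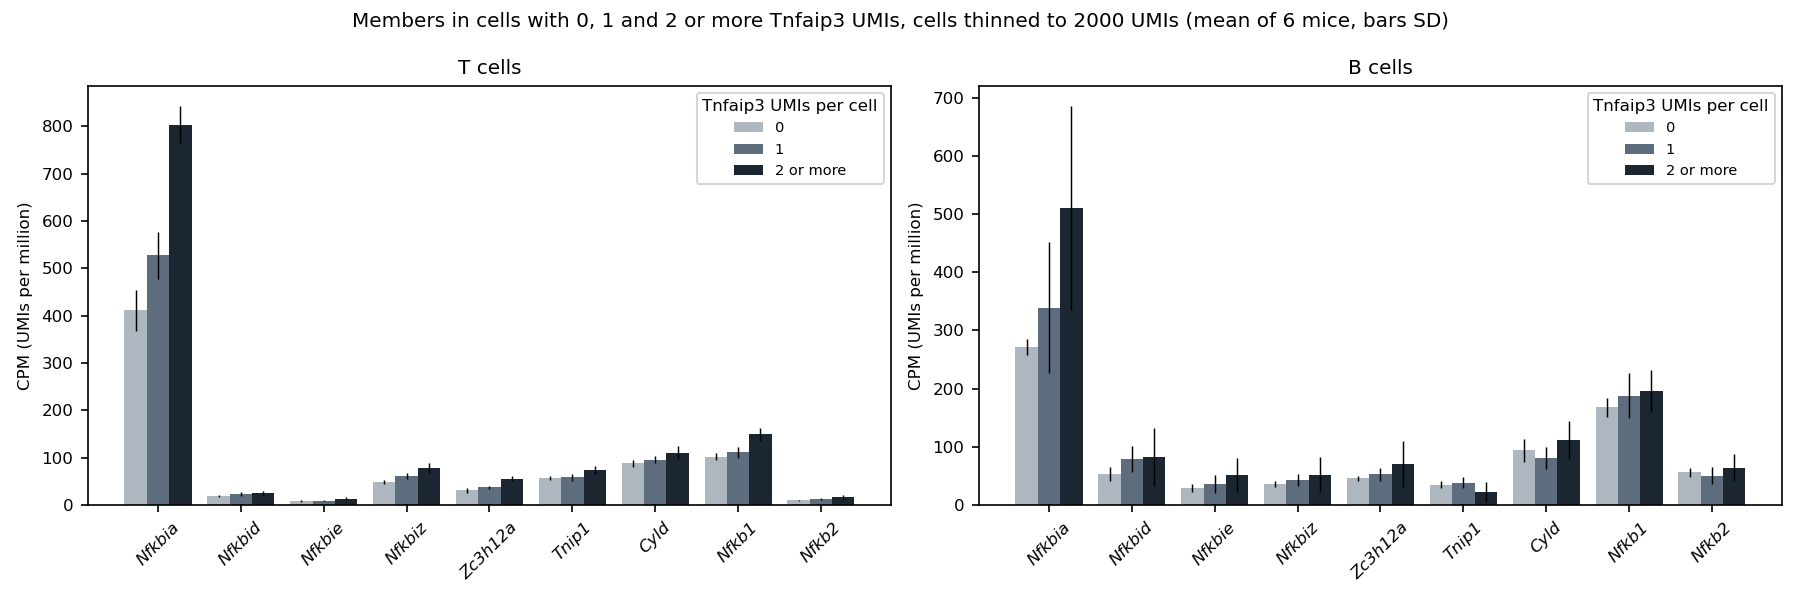
Levels of the other 9 genes (y axis, CPM; bars are means of 6 mice and lines the SD) in T cells and B cells with 0, 1 and 2 or more Tnfaip3 UMIs, after thinning to 2000 UMIs per cell. Nfkbia in T cells climbs through 411 ± 42.8, 528 ± 50.1 and 803 ± 39.5.

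Correlations over cells were weak in all classes, as is usual in sparse counts, and are descriptions over cells that share a library. In thinned T cells the Pearson r of Tnfaip3 with Nfkbia averaged 0.171 over 6 mice (0.150 to 0.197). It was 0.0688 with Zc3h12a, 0.0639 with Nfkbiz and 0.0633 with Nfkb1. The median over the 45 pairs of the 10 genes was 0.0253, and 25 pairs were above 0 in all 6 mice. Within conventional CD4 cells the pair of Tnfaip3 and Nfkbia had 0.140 and the median was 0.0227. In B cells the pair stood at 0.0878 and the median at 0.0145. In myeloid cells, with 963 thinned cells in all, the pair stood at 0.317 (0.202 to 0.431) and the median at 0.0495.

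**Figure D4:**
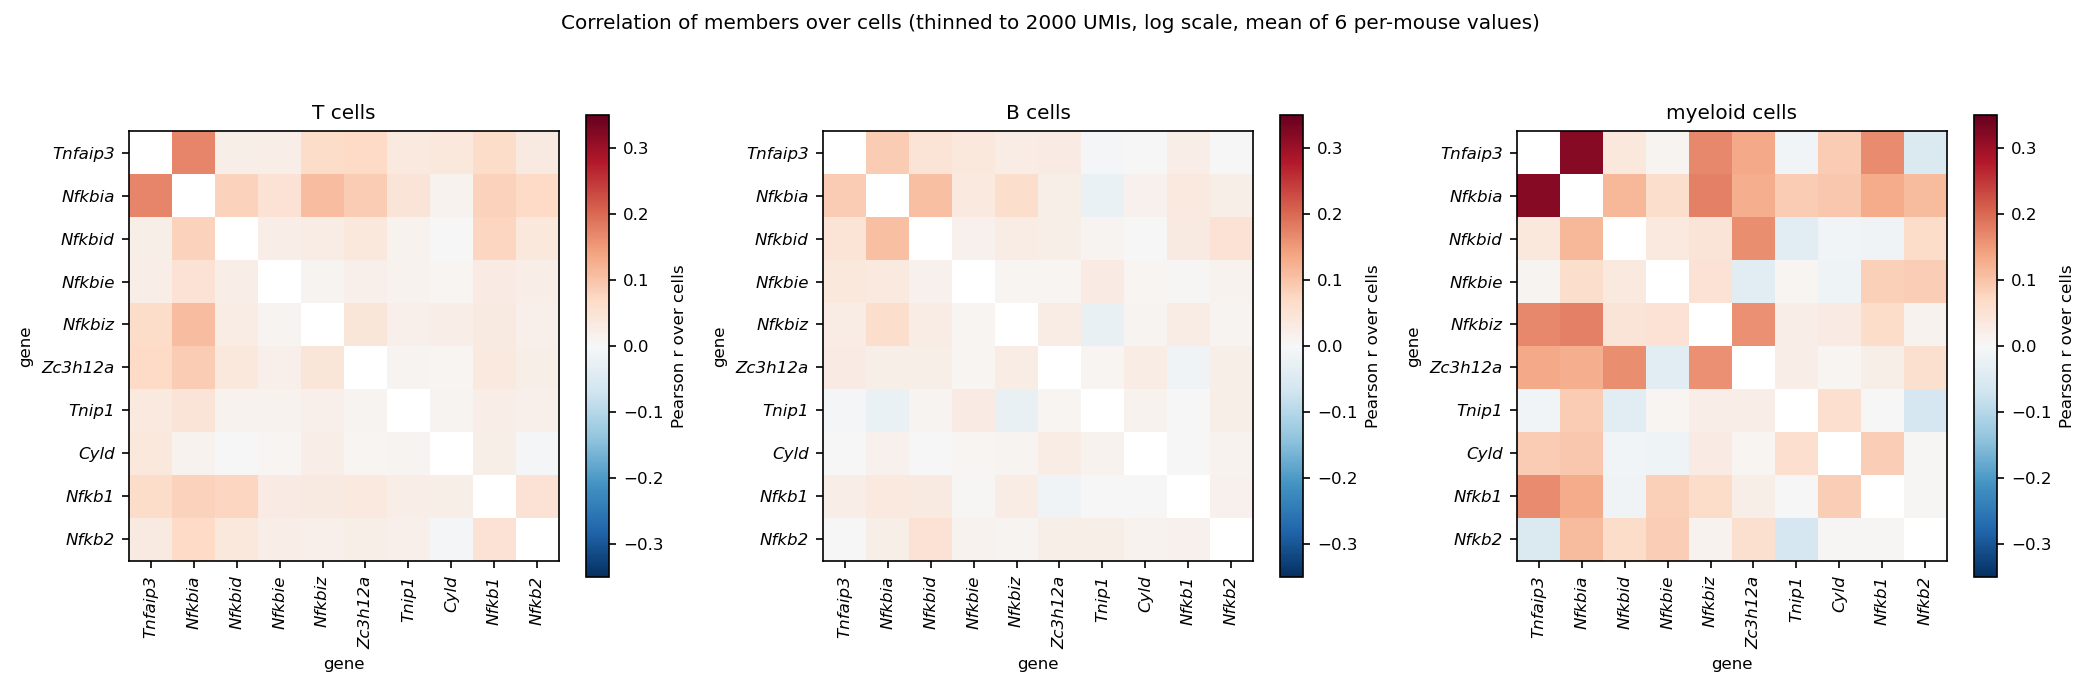
Pearson r over cells for each pair of the 10 genes (both axes are genes, colour is r, the mean of 6 mice) in thinned T, B and myeloid cells. The largest value is that of Tnfaip3 with Nfkbia in T cells (0.171) and in myeloid cells (0.317), and that of Nfkbia with Nfkbid in B cells (0.104).

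Of 4167 genes seen in at least 5% of thinned T cells, Nfkbia was the third most like Tnfaip3 by the mean r over 6 mice. The most alike were Ctla4, an inhibitory receptor of regulatory and activated T cells (r = 0.198, 0.156 to 0.227 over mice), and Rgs1, a regulator of G-protein signals (0.176). Behind Nfkbia came Junb (0.158), Ikzf2 (0.158), Btg1 (0.149), Ddx5 (0.148), Pnrc1 (0.147), Zfp36l1 (0.146), Malat1 (0.141), Tbc1d4 (0.139) and Izumo1r (0.137). The median over all genes compared was 0.00809. Ctla4, Ikzf2 and Izumo1r are known as genes of regulatory T cells. Zc3h12a ranked 66, Nfkbiz 84 and Nfkb1 85 of the 4167.

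In B cells the 6 most alike of 4222 genes were Jund (0.0967), Cd69 (0.0943), Fosb (0.0881), Nfkbia (0.0878), Pim1 (0.0823) and Junb (0.0802). In myeloid cells they were Dusp1 (0.401), Klf6 (0.388), the nuclear RNA Malat1 (0.385), Klf4 (0.377), Pim1 (0.360) and Junb (0.357), with Nfkbia 10th of 3711. Malat1 was seen in 53.3% of thinned myeloid cells, against 99.8% of T cells. Its part in the myeloid correlations was not tested.

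Over the 6 mice, 27 relations of Tnfaip3 with another of the 10 genes were computed on log2 levels in T, B and myeloid cells, and none passed Benjamini-Hochberg adjustment at 0.05. For Spearman's rho the smallest exact p that 6 mice allow is 0.00278, so a lone relation could not have passed over 27. For Pearson's r the smallest possible p is lower, and a lone relation could have passed. In T and B cells the genotypes did not overlap in Tnfaip3, so a pooled correlation would mix the genotypes and none is given. As a description with no p, deviations from the genotype means correlated with those of Tnfaip3 at -0.735 (Nfkbie) to 0.869 (Cyld) over the other 9 genes in T cells. In B cells they ran from -0.402 (Zc3h12a) to 0.578 (Nfkbiz). In myeloid cells, where the genotypes overlapped, the largest r was with Nfkbia (0.797, exact two-sided permutation p = 0.0542, adjusted 0.550). Its rho was 0.886 (exact permutation p = 0.0333, adjusted 0.525). The r was 0.801 without Cre-negative 1 and 3, the mice farthest from the median of the TMM-scaled log2 level used here, and 0.657 for deviations within the genotypes.

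By genotype, Tnfaip3 and Zc3h12a stood apart from the other 8 genes in T cells, as they did when the genes were chosen. Tnfaip3 had 314, 332 and 306 CPM in T cells of Cre-positive mice 1 to 3, against 512, 417 and 359 in Cre-negative mice 1 to 3. All Cre-positive values lay below all Cre-negative ones, which spread more widely and were topped by Cre-negative 1. The means were 317 ± 13.6 in Cre-positive mice and 429.7 ± 77.3 in Cre-negative mice (SD, n = 3 each), with a fitted log2 fold change of -0.43 (SE 0.0875). It was -0.32 without Cre-negative 1. Zc3h12a had 35.3, 34.2 and 30.8 in Cre-positive mice and 43.7, 38.8 and 37.0 in Cre-negative mice, again without overlap (log2 fold change -0.24, SE 0.0705). The groups overlapped for the other 8 genes in T cells. Among all 12125 genes tested there, 4.52% had all Cre-positive below all Cre-negative mice and 6.25% all above, and nothing is read from the 2 of 10, since this contrast chose them.

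The pair kept this order in each T cell subset, which are parts of the same class. In conventional CD4 cells Tnfaip3 had 346, 362 and 348 CPM in Cre-positive mice and 534, 464 and 382 in Cre-negative mice. Regulatory T cells held 604, 695 and 551 in Cre-positive mice and 999, 794 and 737 in Cre-negative mice, while CD8 cells of Cre-positive mice held 207, 221 and 194 and CD8 cells of Cre-negative mice 362, 291 and 244. Fitted log2 fold changes were -0.38 in conventional CD4, -0.45 in regulatory and -0.51 in CD8 cells, with no overlap between genotypes in any of them. Zc3h12a was lowest relative to Cre-negative mice in regulatory T cells, with 60.5, 63.5 and 53.5 CPM in Cre-positive mice against 90.5, 86.3 and 77.9 in Cre-negative mice (log2 fold change -0.52, SE 0.160). In CD8 cells it had 25.9, 26.4 and 24.1 in Cre-positive mice and 32.9, 31.6 and 30.1 in Cre-negative mice.

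Of the inhibitors, Nfkbiz in regulatory T cells had 113, 96.5 and 112 CPM in Cre-positive mice and 151, 128 and 127 in Cre-negative mice, and Nfkbie in CD8 cells had 9.73, 8.59 and 9.02 in Cre-positive mice and 7.43, 6.88 and 7.22 in Cre-negative mice. Those values too did not overlap, the first lower and the second higher in Cre-positive mice. The fitted log2 fold change of Nfkbiz was -0.34, and -0.16 with Cst3 left out of the limit on myeloid UMIs. That of Nfkbie was 0.35, but 0.0924 at 5% mitochondrial UMIs and 0.0409 with the strict gates, and it rested on 376 UMIs in all. Nfkbia, the other classical target, overlapped between the genotypes, at 467, 476 and 516 CPM in T cells of Cre-positive mice and 516, 450.2 and 518 in those of Cre-negative mice (log2 fold change -0.02, SE 0.0795). For Tnip1, Cyld, Nfkb1 and Nfkb2 the fitted log2 fold changes in T cells lay between -0.00308 and 0.02, and for Nfkbid, Nfkbie and Nfkbiz they were -0.02, 0.08 and -0.14. Genes with all Cre-positive mice below all Cre-negative mice made up 4.53%, 5.01% and 5.09% of genes tested in conventional CD4, regulatory and CD8 cells, and the reverse order 5.30%, 4.58% and 5.78%.

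At an adjusted p of 0.05, 0.0412% of all genes passed in T cells, 0.0189% in conventional CD4, 0.0131% in regulatory and 0.0588% in CD8 cells. No gene of the 40 signalling genes passed in any T cell class, and of the target genes Tnfrsf9, a costimulatory receptor, was higher in CD8 cells of Cre-positive mice (log2 fold change 0.95, SE 0.172, adjusted p = 0.00894). The 20 target genes summed to 881 to 1142 CPM in CD8 cells of Cre-positive mice and 763 to 852 in those of Cre-negative mice, without overlap. Their sums overlapped in T, conventional CD4 and regulatory T cells. Among single genes 5.78% had all Cre-positive above all Cre-negative mice in CD8 cells, and no such share was taken for sums. The dissociation genes summed to 3498 to 4597 CPM in CD8 cells of Cre-positive mice and 3253 to 3593 in those of Cre-negative mice. These ranges overlapped, with the highest sum in Cre-positive 3. In CD8 cells 14 of 15 of them had a positive log2 fold change and in regulatory T cells 3 of 12, none of them past the test. Their part was not tested.

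**Figure D5:**
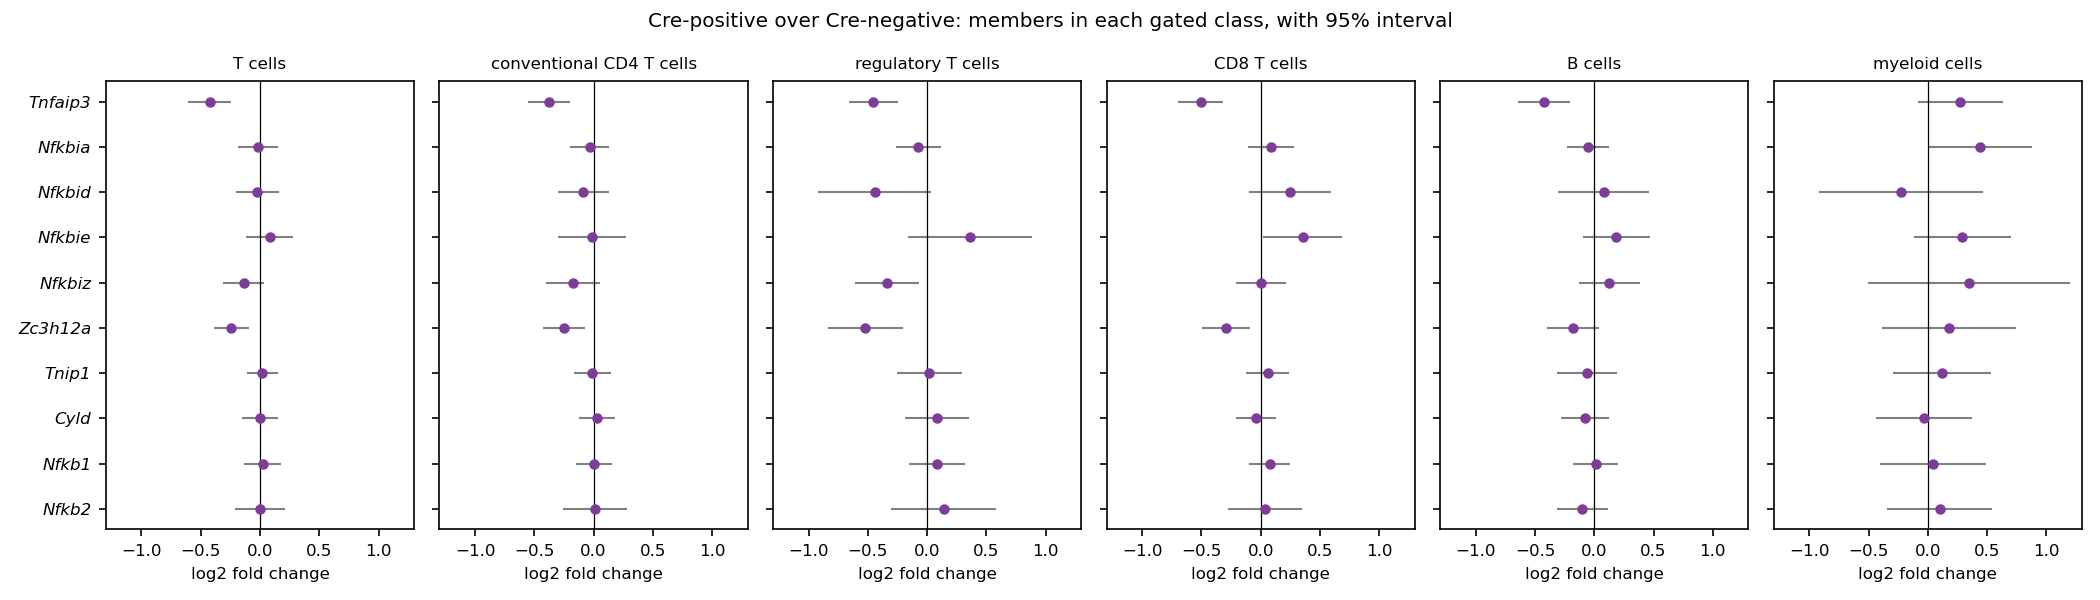
Fitted log2 fold changes of Cre-positive over Cre-negative mice (x axis, with 95% intervals) for the 10 genes in 6 gated classes. Tnfaip3 lies at -0.43 in T cells, -0.42 in B cells and 0.27 in myeloid cells; the 4 T cell panels, intervals included, are descriptions of the contrast that chose the genes.

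B cells are not a lineage in which CD4-Cre is used to delete, and their values did not enter the choice of genes. Tnfaip3 had lower values in B cells of Cre-positive mice, at 75.6, 81.8 and 99.8 CPM, against 137, 108 and 105 in Cre-negative mice. The groups did not overlap. The log2 fold change was -0.42 (95% interval -0.64 to -0.20, SE 0.108), close to the -0.43 of T cells, and the gene ranked 8 of 9245 by p. It did not pass adjustment over all genes (edgeR, adjusted p = 0.572), and 0 genes (0%) did, while DESeq2 called 2. Of the 9245 genes, 368 had an unadjusted p under 0.05 by edgeR, fewer than that threshold alone would give. Without Cre-positive 3 the adjusted p of Tnfaip3 was 0.0387, and with cells holding any UMI of another gate left out it was 0.00484 at a log2 fold change of -0.71. The strict gates held only 190 to 556 B cells per mouse. Tnfaip3 passed in 3 of the 15 alternatives. Over all 15 its adjusted p ran from 0.00484 to 1.00 and its log2 fold change from -0.71 to -0.32. Zc3h12a in B cells had 40.6, 45.6 and 41.4 in Cre-positive mice and 46.7, 47.9 and 50.1 in Cre-negative mice, without overlap (log2 fold change -0.18, 95% interval -0.40 to 0.04, adjusted p = 0.997 by edgeR). These 2 of 10 genes stood beside 5.12% of all genes with every Cre-positive mouse below every Cre-negative one, and none of the 10 stood in the reverse order, which 4.20% had. The other 8 overlapped, with log2 fold changes from -0.10 for Nfkb2 to 0.18 for Nfkbie.

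The measure of T cell RNA in the B cell class overlapped between the genotypes. The 6 T cell genes outside the gates summed in B cells to 148 to 167 CPM in Cre-positive mice and 145 to 165 in Cre-negative mice, and the dissociation genes to 4976 to 5427 in B cells of Cre-positive mice and 5084 to 5651 in those of Cre-negative mice. The summed levels of the 20 target genes did not overlap, at 1772 to 1899 CPM in B cells of Cre-positive mice and 1640.4 to 1729 in those of Cre-negative mice. Among single genes 4.20% had this order in B cells, and no such share was taken for sums, which abundant genes weigh most. Of the 16 target genes tested there, 12 had a positive log2 fold change and none passed, and their median was 0.18, beside -1.90e-04 over all genes. By cell, a Tnfaip3 UMI was seen in 14.1% ± 0.961 of thinned B cells of Cre-positive and 18.1% ± 3.48 of those of Cre-negative mice (SD, n = 3 each). In thinned T cells the share came to 42.4% ± 1.72 for Cre-positive mice and 51.9% ± 5.77 for Cre-negative mice.

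Myeloid cells gave no such order. Tnfaip3 had 126, 144 and 151 CPM there in Cre-positive mice and 100.4, 126 and 109 in Cre-negative mice, overlapping only at Cre-positive 1 and Cre-negative 2 (log2 fold change 0.27, 95% interval -0.08 to 0.63, adjusted p = 1.00 by edgeR). Whether the genotype effect differed between B and myeloid cells was not tested. Nfkbia had 657, 1105 and 758 in Cre-positive mice and 581, 700.4 and 524 in Cre-negative mice, which overlapped, with Cre-positive 2 far above the rest (log2 fold change 0.44, 95% interval -0.00208 to 0.88). Nfkbie was higher in all Cre-positive mice, at 64.4, 72.8 and 65.9 against 53.8, 47.0 and 60.9 in Cre-negative mice (log2 fold change 0.29, 95% interval -0.12 to 0.70), which made 1 of 10 genes beside 5.28% of all genes in that order and 3.18% in the reverse. None of the 10 passed, and 0.0133% of 7513 genes did. The class summed to 791813 to 1633937 UMIs per mouse, against 22487308 to 28792544 in T cells, so changes of the size seen here may not be detectable at this depth. Dissociation genes summed to 3764 to 7344 CPM in Cre-positive mice and 4353 to 5619 in Cre-negative myeloid cells, and 14 of 15 tested had a positive log2 fold change. Their part was not tested.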

How the data were processed

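Single cells of the pancreatic lymph node of 6 mice were profiled on the 10x Genomics droplet platform. The authors deposited raw UMI counts per gene and barcode, which per the submitters' processing notes came from Cell Ranger 6.1.2 and build mm10. Which annotation release was used is not given in the sources used here. The floxed gene and a few others, a gate marker among them, are not reported here.

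A barcode was kept with at least 500 UMIs, at least 300 genes and at most 10% mitochondrial UMIs. Scrublet in scanpy 1.11.5 scored doublets, and the highest 0.8% per 1000 barcodes were removed, 539 to 957 per library. T cells had at least 2 UMIs of Cd3d, Cd3e, Cd3g, Trac, Trbc1 and Trbc2 in sum. B cells had at least 2 of a marker set with Cd79a, Cd79b and Ms4a1, and myeloid cells at least 4 of Lyz2, Cst3, Csf1r, Cd68, Itgax, Itgam, C1qa and C1qb. Each class had at most 1 UMI of either other gate (none with the strict gates). Regulatory T cells had Foxp3 and no Cd8a or Cd8b1. CD8 cells had Cd8a or Cd8b1 and neither Cd4 nor Foxp3, and conventional CD4 cells had Cd4 and none of the others.

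Counts were summed per mouse and class and tested with edgeR 4.0.16 in R 4.3.3 (TMM, filterByExpr, robust quasi-likelihood, Benjamini-Hochberg at 0.05). Genotype was tested within each class, and classes were tested over 18 sums, blocked by mouse. DESeq2 1.42.0, other filters and gates, and leaving out each mouse were alternatives. Leaving Cst3 out of the limit on myeloid UMIs was added after seeing the data. On simulated counts with 200 genes changed by a log2 of 1, 100% were recovered in T, 93.5% in B and 50% in myeloid cells. False calls numbered 12 in T, 9 in B and 12 in myeloid cells. Smaller changes were not simulated. Recovery at the size seen for Tnfaip3 by genotype in B cells (log2 fold change -0.42) was thus not tested. The depth of a class was 22487308 to 28792544 UMIs per mouse for T, 2889817 to 5689821 for B and 791813 to 1633937 for myeloid cells. Shares and correlations over cells used counts thinned to 2000 UMIs per cell.

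All 10 genes are named, with up to 5 genes per list, direction and class contrast of smallest p, and the 12, 6 and 6 genes most like Tnfaip3 in T, B and myeloid cells. Actb, B2m, single dissociation genes in cells split by Tnfaip3 UMIs, and Tnfrsf9 by genotype were named after their values were seen. The genes, lists and tests were chosen with earlier results of these data known.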

Additional observations from a re-analysis of the deposited data

How the results depend on the processing

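In T versus B cells, 143 of 150 values kept their direction and side of the threshold, 5 newly passed and 2 no longer did. Myeloid versus T cells had 125 alike, 16 newly passed and 9 of the other sign. Myeloid versus B cells had 141 alike, 3 no longer past and 6 of the other sign. Values of the other sign belonged to differences that had not passed. The cause of these changes was not tested.

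Genes called by genotype in T cells numbered 5, but 13 with DESeq2, 2 without TMM, 62 without the low-count filter, 3 at 5% mitochondrial UMIs, 2 with doublets kept, 1 with strict gates, 11 with the replicate block, 2 to 14 without single mice. In conventional CD4 cells they numbered 2, but 1 without TMM, 17 without the low-count filter, 1 at 5% mitochondrial UMIs, 1 with doublets kept, 4 with strict gates, 1 with Cst3 not counted, 8 with the replicate block, 1 to 15 without single mice. In regulatory T cells they numbered 1, but 0 with DESeq2, 10 without the low-count filter, 0 at 5% mitochondrial UMIs, 2 with doublets kept, 4 with the replicate block, 1 to 10 without single mice. In CD8 cells they numbered 6, but 1 without TMM, 31 without the low-count filter, 2 at 5% mitochondrial UMIs, 2 with Cst3 not counted, 35 with the replicate block, 1 to 16 without single mice. In B cells they numbered 0, but 2 with DESeq2, 5 without the low-count filter, 1 with doublets kept, 3 with strict gates, 1 with Cst3 not counted, 2 with the replicate block, 0 to 6 without single mice. In myeloid cells they numbered 1, but 14 without the low-count filter, 0 at 2000 UMIs, 0 with strict gates, 7 with the replicate block, 0 to 3 without single mice. Without the filter more genes of low counts were tested.

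Of the 10 genes, those called by genotype in B cells numbered 0, but 1 without the low-count filter, 1 with strict gates, 0 to 1 without single mice. Between myeloid and T cells they numbered 4, but 8 without the low-count filter, 8 with Cst3 not counted.

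Fitted log2 fold changes of the other sign in B cells by genotype were these. Nfkbia (-0.0510) had -0.103 to 0.00723 without single mice. Nfkbid (0.0782) had -0.350 with strict gates, -0.0348 with Cst3 not counted and -0.0944 to 0.284 without single mice. Zc3h12a (-0.180) had 0.00769 at 5% mitochondrial UMIs. Tnip1 (-0.0639) had 0.00477 with Cst3 not counted and -0.107 to 0.0197 without single mice. Cyld (-0.0786) had 0.0309 at 5% mitochondrial UMIs and -0.157 to 0.0184 without single mice. Nfkb1 (0.0121) had -0.00544 without TMM, -0.00950 with strict gates and -0.0812 to 0.110 without single mice. In myeloid cells by genotype, Zc3h12a (0.178) had -0.123 to 0.337 without single mice. Cyld (-0.0302) had 0.0186 without TMM, 0.0341 with doublets kept and -0.191 to 0.0783 without single mice. Nfkb1 (0.0443) had -0.00546 at 5% mitochondrial UMIs, -0.0335 at 2000 UMIs, -0.0238 with strict gates and -0.192 to 0.197 without single mice. Nfkb2 (0.100) had -0.150 at 5% mitochondrial UMIs, -0.200 with strict gates and -0.0546 to 0.290 without single mice. In myeloid versus T cells, Nfkbid (0.0417) had -0.0600 without TMM, -0.0811 without the low-count filter, -0.0316 with Cst3 not counted and -0.0634 to 0.183 without single mice. Nfkbiz (-0.0991) had 0.0101 at 2000 UMIs and -0.316 to 0.0603 without single mice. Tnip1 (-0.0648) had 0.0768 at 5% mitochondrial UMIs. In myeloid versus B cells, Cyld (0.00163) had -0.158 without TMM, -0.0893 without the low-count filter, -0.0822 with Cst3 not counted and -0.0907 to 0.0918 without single mice.

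By genotype in T cell classes, fitted log2 fold changes moved by over their SE in 9 of 150 values in T, 7 in conventional CD4, 7 in regulatory and 11 in CD8 cells. In T cells, Nfkbid (-0.0239) had 0.111 with strict gates, Zc3h12a (-0.243) had -0.343 at 5% mitochondrial UMIs. In conventional CD4 cells, Nfkbid (-0.0870) had 0.0721 with strict gates, Nfkbie (-0.00972) had 0.162 with strict gates. In regulatory T cells, Tnfaip3 (-0.454) had -0.607 with strict gates, Nfkbid (-0.443) had -0.0396 with strict gates, Nfkbiz (-0.341) had -0.156 with Cst3 not counted, Tnip1 (0.0191) had 0.196 with strict gates, Cyld (0.0865) had -0.0860 with strict gates. In CD8 cells, Nfkbia (0.0884) had -0.0288 with strict gates, Nfkbie (0.352) had 0.0924 at 5% mitochondrial UMIs and 0.0409 with strict gates, Zc3h12a (-0.291) had -0.476 at 5% mitochondrial UMIs, Nfkb2 (0.0361) had 0.203 with strict gates. The other such values came from leaving out a mouse.

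The replicate numbers of the labels did not pair the mice: deviations of same-numbered mice correlated at -0.292, -0.780 and -0.00653 in T cells and -0.117, -0.263 and 0.151 in B cells, so the counts under the replicate block above are given for completeness. Thinned to 3000 UMIs, 8 of 27 values of r over cells moved by over the spread between mice. In myeloid cells the r with Tnfaip3 was 0.469 in place of 0.317 for Nfkbia, 0.159 in place of 0.0107 for Nfkbie, 0.0972 in place of -0.00941 for Tnip1 and 0.0859 in place of -0.0508 for Nfkb2. Depth limits the myeloid class most, where 713 of 1676 cells fell below 2000 UMIs.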
